A study of Mus musculus with 12 samples.

Results

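Chromatin accessibility was followed peak by peak at 8 genes in grafted brain macrophages and host microglia of bone marrow (BM) chimeric mice. The genes were Celf4, Nova1, Csmd3, Ptprm, Hapln1, Slc1a3, Garem1 and Axin2. Every merged ATAC-seq peak that the authors' annotation assigned to 1 of these genes, that is, to the nearest transcription start site, was taken. This gave 91 of 60288 peaks in untreated mice and 66 of 54953 peaks after lipopolysaccharide (LPS), 157 of 115241 in both tables together. The genes were picked because peaks near them had been seen to be higher in CD45.2 cells. Differences between CD45.1 and CD45.2 cells at these peaks are therefore given as a description. The DESeq2 calls made on them below serve as labels and are not read as evidence. ATAC-seq uses a transposase to place sequencing adapters in open DNA, and a tag is a sequenced end. All 12 libraries came from WT mice on the C57BL/6J strain that had been irradiated with 950 cGy and had received donor BM. Graft-derived cells carry CD45.1, and host microglia that outlived the irradiation carry CD45.2. Both were sorted from the same brains, and the sort gate of the study's methods was CD11b positive, CD45 low and Ly6C/G negative. Each of the 4 groups has 3 libraries: graft and host cells of untreated mice (mice 4, 5 and 6), and graft and host cells of mice 1, 2 and 3, which were killed 12 h after 2.5 mg/kg of LPS. Age at analysis was not used here. The labels give 3.5 or 9 months after transfer without tying either to a mouse, and the longer interval is the one in the study's text.

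The 8 genes are known mostly from cells other than macrophages. Celf4 and Nova1 encode RNA-binding proteins that regulate splicing and other steps of mRNA processing in neurons. Csmd3 encodes a large membrane protein with CUB and sushi domains, and Ptprm a receptor tyrosine phosphatase that mediates adhesion between cells through its extracellular part. Hapln1 encodes a link protein that stabilizes hyaluronan and proteoglycan aggregates of the extracellular matrix, and Slc1a3 the glutamate transporter GLAST, a classical product of astrocytes. Garem1 encodes an adaptor in growth factor signalling, and Axin2 an inhibitor of the Wnt pathway that is itself a Wnt target gene. The set is thus mixed, and not each of the 8 is a neural or adhesion gene by its best known role. An open region at a locus is not a measure of its transcription, and no RNA was analysed here.

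Untreated libraries totalled 8392877.5 to 9107770 tags, and LPS libraries 2966364 to 6556594.5. The CD45.2 library of untreated mouse 4 stood apart, with 18.4% of its tags in merged peaks against 38.4% and 39.0% in mice 6 and 5. Values are normalized tags, that is, tags divided by DESeq2 size factors within 1 table. The tables of untreated and LPS mice were normalized separately, so levels are compared within a table only, unless the joint fit is named. In such bulk libraries, fewer cells with an open region and less opening per cell cannot be told apart.

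Sequences of 7 untreated peaks are shown because results below turn on them. They are the plus strand of mm9, 5′ to 3′, and capitals mark matches to 1 of 11 motifs searched on both strands. The motifs were GAGGAAG (PU.1), TGANTCA (AP-1), AAAATAG (MEF2), TGTGGTT (RUNX), GTCTAGA (SMAD), TGCTGAC (MAF), CACGTG (the MITF/TFE E-box), TTGCNNAA (CEBP), GGGNNTTCC (NF-kappaB), GAANNGAAA (IRF) and CTTTGAT (TCF/LEF). No motif contains another, although matches can overlap. The first is the intron 7 peak of Slc1a3, the only peak here that passed the test of a different LPS response, with matches to RUNX and MAF. The second lies beyond the 3′ end of Slc1a3, was almost equally open in both populations and has a CEBP match. The Csmd3 peak has CEBP, PU.1, MAF and E-box matches, the most of any peak of these genes, and the Nova1 peak has IRF and MAF matches. A pair of Hapln1 peaks in 1 kind of long terminal repeat (LTR) is the most alike of the 3 pairs among its untreated peaks, and the Axin2 peak, annotated as an rRNA repeat, had the highest level of all.
Slc1a3 intron 7, chr15:8592358-8592499: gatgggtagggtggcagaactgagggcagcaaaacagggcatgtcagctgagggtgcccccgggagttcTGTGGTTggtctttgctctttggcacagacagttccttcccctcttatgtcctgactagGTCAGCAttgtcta
Slc1a3 3′ side, chr15:8577127-8577332: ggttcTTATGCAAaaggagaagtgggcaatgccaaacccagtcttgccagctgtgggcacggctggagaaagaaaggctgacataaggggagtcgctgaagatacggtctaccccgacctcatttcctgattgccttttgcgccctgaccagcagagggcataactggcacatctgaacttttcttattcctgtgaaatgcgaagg
Csmd3 upstream, chr15:48670828-48670959: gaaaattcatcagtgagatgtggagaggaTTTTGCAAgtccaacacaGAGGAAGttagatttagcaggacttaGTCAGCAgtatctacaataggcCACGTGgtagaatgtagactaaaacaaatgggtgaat
Nova1 upstream, chr12:47922518-47922664: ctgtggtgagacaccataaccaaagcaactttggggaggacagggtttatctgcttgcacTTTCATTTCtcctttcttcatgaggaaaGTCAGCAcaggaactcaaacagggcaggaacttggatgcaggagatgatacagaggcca
Hapln1 first LTR peak, chr13:89523447-89523563: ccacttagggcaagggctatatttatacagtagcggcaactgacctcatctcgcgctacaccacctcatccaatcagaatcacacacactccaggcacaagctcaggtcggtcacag
Hapln1 second LTR peak, chr13:89524435-89524596: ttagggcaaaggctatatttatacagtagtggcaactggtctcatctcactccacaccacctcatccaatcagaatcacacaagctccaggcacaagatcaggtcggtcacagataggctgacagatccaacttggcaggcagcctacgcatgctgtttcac
Axin2 downstream, chr11:108873111-108873277: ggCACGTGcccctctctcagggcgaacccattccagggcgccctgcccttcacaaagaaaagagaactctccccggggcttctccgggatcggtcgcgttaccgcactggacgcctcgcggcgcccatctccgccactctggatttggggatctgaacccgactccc

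The shorter Hapln1 sequence could be placed in the longer one at 88.03% identity, with 29 bases as the longest run that both hold. The other 2 pairs of Hapln1 peaks were at 49.52% and 53.33%, with runs of at most 6 bases. Reads from such copies may be assigned to either, so the levels of the Hapln1 and Axin2 repeat peaks are uncertain. In 200-bp windows around the peak centres, 19 of the 91 untreated peaks held the PU.1 letters (20.9%, against 21.8% of all peaks). The IRF letters were in 18 (19.8% against 10.8%), CEBP in 11 (12.1% against 9.82%), MAF in 7 (7.69% against 5.38%) and RUNX in 6 (6.59% against 5.65%). AP-1 was in 5 (5.49% against 8.11%), E-box and NF-kappaB in 3 each (3.30%, against 5.65% and 4.24%), and MEF2 in 2 (2.20% against 3.23%). No window held the SMAD or TCF/LEF letters, which 1.72% and 1.90% of all windows hold. In the LPS table the IRF letters were in 3 of 66 windows (4.55% against 8.83%), so the higher share seen in untreated peaks was not found there. A match is only a run of letters, and no test was made of these shares.

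In untreated mice all 91 peaks passed the filter on low counts, which needs more than 10 tags in at least 1 library, and all 91 were lower in CD45.1 than in CD45.2 in the fit (background 49.9%). A peak was called where the DESeq2 adjusted p was under 0.01 and the difference more than 4-fold, and 63 of the 91 were called higher in CD45.2, against a background of 2.65% of all tested peaks. None was called higher in CD45.1, where the background was 3.78%. The median log2 fold change (CD45.1 over CD45.2, so that a negative value is higher in CD45.2) was −2.79, against 0.00 over all peaks. In 85 peaks every CD45.2 library was above every CD45.1 library, as in 17.7% of all peaks. The median of the peak means was 4.43 tags for CD45.1 against 25.2 for CD45.2, and in 23 peaks no CD45.1 library held more than 3 tags. For those peaks 3 tags in each CD45.1 library stand in for the graft level, and the fold is a lower limit, written as “at least”. Since the genes were picked on this contrast, nothing is read from these counts.

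After LPS, 60 of 66 peaks passed the filter and 27 were called higher in CD45.2 (background 1.19%), none in CD45.1 (background 1.78%). The 6 peaks that did not pass the filter lie at Celf4 (2), Csmd3 (1) and Ptprm (3). The median log2 fold change was −2.48 against −0.01 over all peaks, 55 of 60 were below 0 (background 50.6%), and 48 did not overlap (background 13%). In 19 peaks no CD45.1 library held more than 3 tags. The 5 peaks at or above 0 belong to Celf4 (2), Slc1a3 (2) and Hapln1 (1). Close to the limit, the Ptprm promoter after LPS was called at 4.07-fold (log2 −2.002, SE 0.33) and the exon 10 peak of Slc1a3 in untreated mice at 4.41-fold (−2.13, SE 0.26). Just outside it were a Ptprm intron 1 peak at chr17:67653765-67653859 (−1.97, SE 0.76) and the Slc1a3 intron 7 peak after LPS (−1.99, SE 0.48). A further limit was the spread, since 5 untreated and 10 LPS peaks differed by more than 4-fold in the fit without being called.

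**Figure D1:**
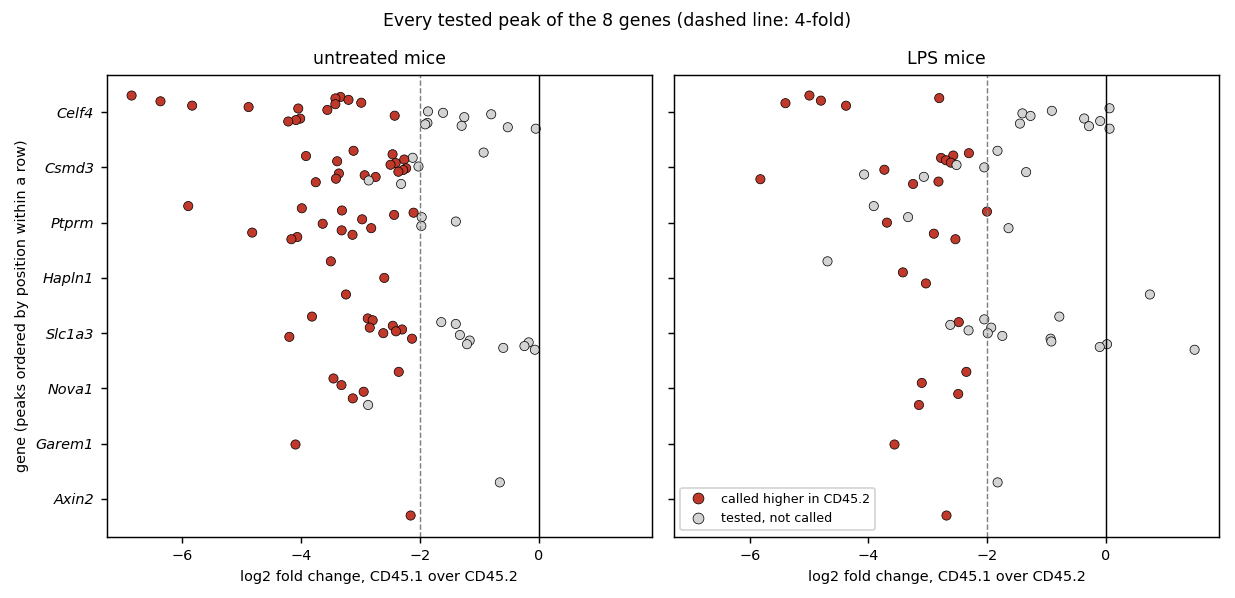
Each point is 1 tested peak, placed by its log2 fold change of CD45.1 over CD45.2 (x axis) and by its gene (y axis, peaks in order of position within a row), for untreated mice (left, 91 peaks) and LPS mice (right, 60 peaks). Red points were called higher in CD45.2 (63 and 27) and lie left of the dashed 4-fold line, and all untreated points lie left of 0.

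Celf4 (chr18:25636133-25912484, minus strand) had the most peaks, 24 in untreated mice, spread from −626000 to 266911 bp from its start. Of these 15 were called higher in CD45.2, and the sum over all peaks was 197 ± 48.02 normalized tags in CD45.1 against 802 ± 49.5 in CD45.2 (SD, n = 3 here and below, log2 −2.02, SE 0.14). The promoter peak at chr18:25912745-25912931 held 3.73, 5.48 and 0 tags in CD45.1 of mice 4, 5 and 6 against 42.6, 30.96 and 40.6 in CD45.2, 12.4-fold higher in host microglia (−3.56, SE 0.59). In each mouse the host library was far above the graft library, and 1 graft library had no tag. The lowest fold change among peaks with a CD45.2 mean of at least 20 was at chr18:26538436-26538533, the far upstream end, where CD45.1 held no tag in any library and CD45.2 16.4, 20.9 and 24.3, at least 7-fold higher (fitted −6.86, SE 1.28). Its assignment to Celf4 rests on distance alone. The strongest peak in host microglia, at chr18:26041983-26042140 (−129577 bp from the start), held 19.6, 29.2 and 11.98 against 188, 139 and 166 tags (8.12-fold, −2.99, SE 0.27). Celf4 was not closed in grafted cells throughout. Within intron 10, at chr18:25645503-25645644, CD45.1 held 54.1, 53.9 and 46.8 tags and CD45.2 63.9, 49.5 and 49.5, a 1.05-fold difference with overlapping libraries (−0.05, SE 0.26). After LPS the same site held 34.9 ± 6.697 and 34.2 ± 7.41 tags (0.06, SE 0.34).

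After LPS, 5 of the 14 tested Celf4 peaks were called, 4 of them upstream of the gene and 1 at the promoter, and the sum was 125 ± 25.1 against 389 ± 133 (−1.62, SE 0.23). The lowest fold change was at chr18:25913924-25914123 (−1539 bp), with 0.809, 0 and 1.89 tags in CD45.1 of mice 1, 2 and 3 and 49.04, 36.6 and 39.2 in CD45.2, at least 13.6-fold higher (−5.40, SE 0.91). The promoter held 1.62, 0 and 1.89 against 42.04, 21.8 and 19.6 tags (at least 9.098-fold, −4.38, SE 0.86). None of the 9 tested peaks inside the gene body was called in LPS mice, and their log2 fold changes ran from −1.45 to 0.06.

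Nova1 (chr12:47795504-47919762, minus strand) had 6 untreated peaks, 5 of them called, and 4 LPS peaks, all called. Sums were 71.2 ± 26.6 against 537 ± 102 (−2.91, SE 0.34) and 45.19 ± 14.3 against 265 ± 88.8 (−2.53, SE 0.26). The promoter at chr12:47920390-47920553 was open in both populations and was in the peak list of all 6 libraries, with 48.5, 49.3 and 17.4 tags in CD45.1 against 383, 234 and 277 in CD45.2 (7.76-fold, −2.95, SE 0.46). The graft library of mouse 6 was the lowest and the host library of mouse 4 the highest, and the groups stayed far apart. After LPS it held 22.6, 31.3 and 37.7 against 235, 154 and 131 tags (5.66-fold, −2.49, SE 0.28). The peak shown above, at −2829 bp in an MTC LTR, held 5.597, 11.9 and 4.36 against 91.8, 63.5 and 69.8 tags (10.3-fold, −3.32, SE 0.41). In LPS mice the lowest fold change among peaks with a CD45.2 mean of at least 20 was at chr12:47957863-47958060, in an ORR1E LTR at −38199 bp, with 3.23, 2.61 and 0.944 against 36.8, 15.7 and 9.5 tags (9.13-fold, −3.10, SE 0.77). There the host library of mouse 1 held more than the other two together, and the call was lost with the mouse as a block and on leaving out any library but CD45.2 of mouse 3 (without CD45.2 of mouse 1 the log2 fold change was −2.47).

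Csmd3 (chr15:47412183-48623609, minus strand) is the longest of these loci, and its peaks lay from −301287 to 1056651 bp from the start. Of 20 untreated peaks 15 were called, and of 15 tested LPS peaks 9. Sums were 125 ± 62.8 against 691 ± 77.6 (−2.46, SE 0.43) and 50.7 ± 12.1 against 319.8 ± 95.7 (−2.65, SE 0.24). At the promoter, chr15:48624364-48624529, CD45.1 held 17.7, 23.7 and 8.71 tags and CD45.2 93.4, 72.8 and 75.5 (4.82-fold, −2.23, SE 0.32), and after LPS 6.47, 5.22 and 4.72 and 56.05, 22.7 and 32.1 (6.75-fold, −2.69, SE 0.53). Without CD45.1 of mouse 6 the untreated promoter was not called (−1.93). The lowest fold change among the stronger peaks was in intron 3 at chr15:48415465-48415649, with 4.66, 5.48 and 2.18 against 60.6, 38.7 and 37.3 tags (11.1-fold, −3.41, SE 0.53). After LPS, among peaks with a CD45.2 mean of at least 20, it was in intron 1 at chr15:48612580-48612759, with 3.23, 2.61 and 3.77 against 59.6, 36.6 and 36.8 tags (13.8-fold, −3.73, SE 0.58). In both the host libraries were all above the graft libraries. The strongest Csmd3 peak, at −112898 bp in an Lx5 LINE, chr15:48736367-48736499, was not called, and its graft libraries ranged widely, with 30.8, 50.2 and 7.62 tags against 146, 107 and 135 in CD45.2 (−2.12, SE 0.67). The peak with 4 motif matches held 9.33, 2.74 and 3.27 against 36.1, 20.1 and 27.6 tags (5.46-fold, −2.41, SE 0.56).

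Ptprm (chr17:67016188-67703799, minus strand) had 16 untreated peaks, 12 of them in intron 1, and 13 were called. After LPS 7 of 10 peaks were tested and 4 were called. Sums were 80.8 ± 15.1 against 515 ± 63.3 (−2.66, SE 0.16) and 42.3 ± 4.79 against 227 ± 40.5 (−2.42, SE 0.23). The promoter at chr17:67703820-67704041 was in the lists of all 6 libraries, with 31.7, 38.3 and 26.1 tags in CD45.1 against 172, 115 and 135 in CD45.2 (4.39-fold, −2.11, SE 0.25), and after LPS 16.2, 16.96 and 17.9 against 84.1, 64.5 and 59.4. It was thus open in grafted cells too, at a lower level. Within intron 1 the graft signal was mostly near 0. At chr17:67543226-67543359 CD45.1 held 2.798, 2.74 and 0 tags and CD45.2 39.3, 24.8 and 40.6, at least 11.9-fold higher (−4.16, SE 0.71). After LPS the lowest fold change among peaks with a CD45.2 mean of at least 20 was at chr17:67692389-67692620, with 1.62, 2.61 and 2.83 against 42.04, 27.04 and 22.6 tags, at least 9.99-fold higher (−3.69, SE 0.68).

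Hapln1 (chr13:89680241-89751437, plus strand) had no peak at its promoter or in its body. Its 3 untreated peaks lay together, at −156736 to −155726 bp, all in an RLTR44B element, an ERVK LTR, and all 3 were called. The sum was 40.6 ± 17.1 against 396 ± 59.98 (−3.28, SE 0.35). The first held 16.8, 14.6 and 6.53 against 174, 135 and 133 tags (11.6-fold, −3.499, SE 0.31), and the second sequence printed above 18.7, 31.03 and 10.9 against 236, 166 and 188 (9.74-fold, −3.24, SE 0.27). After LPS the same pair was called, the first with 7.28, 20.9 and 11.3 against 203, 117 and 93.2 tags (10.5-fold, −3.42, SE 0.54). The sum was 34.4 ± 8.603 against 259 ± 99.3 (−2.91, SE 0.28). The only Hapln1 peak on the other side of the gene, 93708 bp downstream of the start at chr13:89773903-89773995, appeared in LPS mice alone, in the list of 1 CD45.1 library, and held 7.52 ± 6.66 against 4.79 ± 2.19 tags (0.74, SE 0.81).

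Slc1a3 (chr15:8584124-8660764, minus strand) differed the least on average by its sum, with 333 ± 53.4 tags in CD45.1 against 982 ± 55.1 in CD45.2 without treatment (−1.56, SE 0.12) and 168 ± 9.899 against 315 ± 45.5 after LPS (−0.89, SE 0.17). The difference was uneven along the locus. Of 19 untreated peaks 10 were called, from −91095 bp to exon 10, and none of the 4 peaks beyond the annotated 3′ end or the 1 at the transcript end was. In intron 7, CD45.1 held 11.2, 8.21 and 4.36 tags and CD45.2 156, 136 and 154 (18.8-fold, −4.20, SE 0.35). Upstream, at chr15:8751801-8752003, the values were 5.597, 5.48 and 1.09 against 52.4, 68.1 and 55.2 (14.4-fold, −3.82, SE 0.50). The promoter peak at chr15:8660629-8660813 was weak in both, with 7.46, 2.74 and 6.53 against 19.7, 13.2 and 19.5 tags (3.13-fold, −1.64, SE 0.60), and was not called. By contrast the 3′ side peak at chr15:8577127-8577332 was strong in both populations, with 97.01, 95.8 and 89.3 tags in CD45.1 against 98.3, 108 and 123 in CD45.2 (1.17-fold, −0.24, SE 0.19), so that the ranges almost touched. It was the strongest CD45.1 peak of the 8 genes in both tables.

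After LPS only 1 of 13 Slc1a3 peaks was called, in intron 3 at chr15:8631176-8631354, with 4.85, 5.22 and 5.66 against 35.03, 34.02 and 20.2 tags (5.67-fold, −2.48, SE 0.54). It was not called without the CD45.1 library of mouse 1 or the CD45.2 library of mouse 2. The intron 7 peak held 5.66, 7.83 and 9.44 against 26.3, 31.4 and 31.5 tags (3.89-fold, −1.99, SE 0.48), and no graft library reached a host library. The 3′ side peak held 57.2 ± 2.57 and 57.9 ± 13.6 tags (0.02, SE 0.27). The most distant peak, at chr15:8539892-8539984, was the highest in fold change on the CD45.1 side, with 9.703, 7.83 and 11.3 tags in CD45.1 against 1.75, 4.36 and 3.56 in CD45.2 (1.497, SE 0.75), and was not called.

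Garem1 (annotated as Fam59a in GENCODE vM1, chr18:21285702-21458639, minus strand) had a single peak in each table, at its promoter. In untreated mice it spanned 127 bp (chr18:21458800-21458926) and held 5.597, 3.65 and 8.71 tags in CD45.1 against 128, 97.5 and 81.2 in CD45.2 (17.1-fold, −4.10, SE 0.42). After LPS it spanned 298 bp (chr18:21458683-21458980) and held 13.7, 11.7 and 13.2 against 212, 167 and 91.4 (12.1-fold, −3.57, SE 0.35). No CD45.1 library listed it as a peak in untreated mice, and all 3 did in LPS mice. Lists depend on depth and threshold, and these were called in each library separately.

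Axin2 (chr11:108781663-108812097, plus strand) had a promoter peak and a peak 91531 bp downstream of the start, beyond the gene. The promoter at chr11:108781584-108781688 was open in both populations, with 19.6, 25.6 and 19.6 tags in CD45.1 against 26.2, 23.99 and 50.3 in CD45.2, which overlapped (1.55-fold, −0.65, SE 0.39). After LPS it held 6.47, 10.4 and 1.89 against 21.02, 25.3 and 17.8 (3.41-fold, −1.82, SE 0.57), without overlap, and was not called. The downstream peak carried most of the sum, with 87.7, 74.8 and 98.02 tags in CD45.1 against 583, 341 and 239 in CD45.2 (4.46-fold, −2.15, SE 0.40). The host libraries spread widely, and without that of mouse 4 the log2 fold change was −1.76, under the 4-fold limit. After LPS it held 19.4, 22.2 and 16.98 against 102, 148 and 119.9 tags (6.31-fold, −2.68, SE 0.29). The sums of both peaks were 108 ± 6.08 against 425 ± 159 (−1.98, SE 0.32) and 26.6 ± 7.62 against 145 ± 25.5 (−2.48, SE 0.27).

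**Figure D2:**
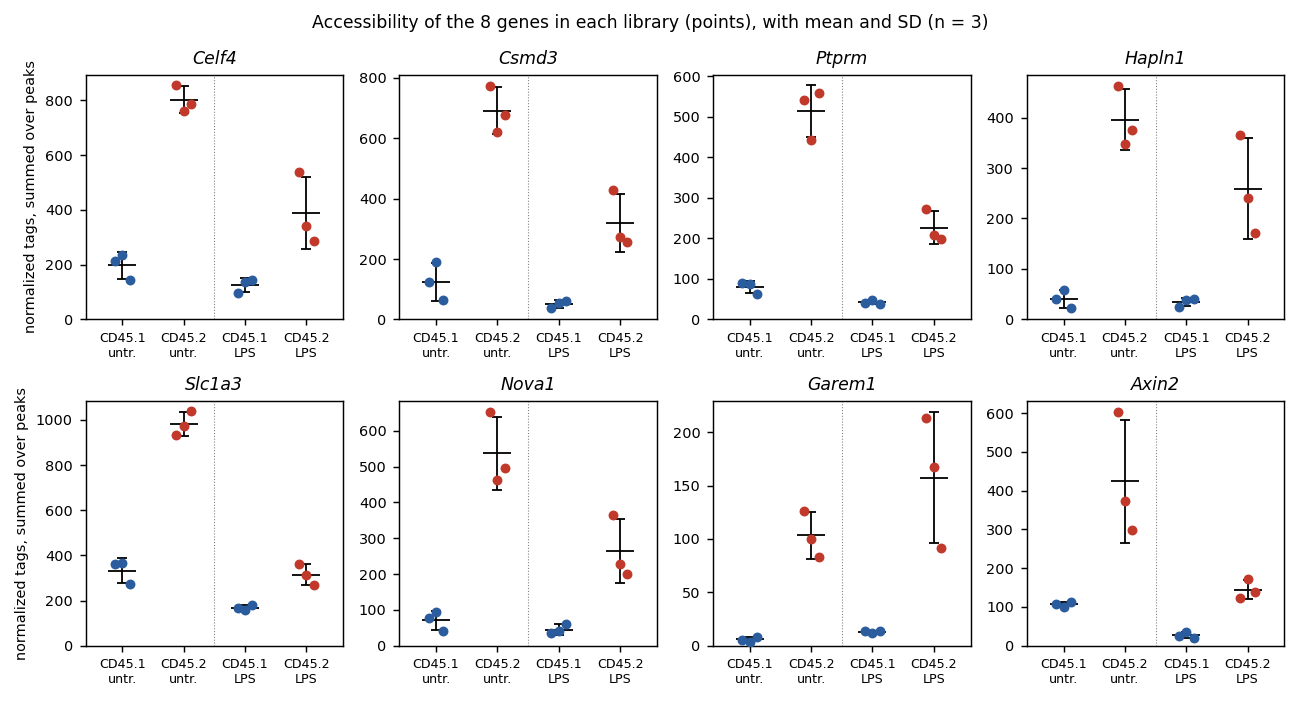
Normalized tags summed over all peaks of each gene (y axis, from 0) in the 4 groups (x axis), with 1 point per library, CD45.1 blue and CD45.2 red, and bars for the mean and SD (n = 3). In every panel all CD45.2 points lie above all CD45.1 points of the same treatment, and the dotted line parts the tables, which were normalized separately.

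Single libraries were the lowest or highest for several genes. In untreated mice the CD45.1 library of mouse 6 was the lowest for 6 of the 8 sums, as for 39.7% of all genes and 52.7% of the other genes that were higher in CD45.2 by more than 2-fold. The graft gave 8.54% of the Csmd3 signal in mouse 6 against 13.8% and 23.3% in mice 4 and 5, and 5.82% of the Hapln1 signal against 8.18% and 14.2%. Garem1 and Axin2 went the other way, with a higher graft share in mouse 6 than in mice 4 and 5 (9.22% against 4.26% and 3.56%, and 27.5% against 15.3% and 21.3%). The CD45.2 library of mouse 4 was the highest for 6 of 8 sums (37.1% of all genes and 32.2% of the other genes higher in CD45.2 by more than 2-fold). Relative to library totals, however, that library was the lowest of the 3 for all 8, in step with its low share of tags in peaks, so its rank depends on the scaling. After LPS the CD45.2 library of mouse 1, the shallowest, was the highest for 7 of 8 sums, as for 41.0% of all genes and 58.2% of the 388 other genes that were higher in CD45.2 by more than 2-fold. Its part in the results was not tested beyond leaving it out.

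Position and repeats, and in untreated mice width, also set these peaks apart from the average peak, as a description of 8 loci. They were not compared with other peaks higher in CD45.2, so these features are not shown to be particular to the 8 genes. Promoter peaks made up 7.69% of the 91 untreated peaks against 22.2% of all peaks, and peaks over 100 kb from the start site 39.6% against 7.23%. The median distance from the start was 75815 bp against 10280 bp. Repeats of the LINE, SINE, LTR and DNA classes were annotated on 20.9% against 10.6%, and other classes, such as rRNA, were not counted. The median width was 117 bp against 132 bp. After LPS the shares were alike, with 10.6% at promoters (22.7% of all), 34.8% over 100 kb away (7.73%) and 19.7% in these repeats (10.6%). The median width there was close to that of all peaks, at 164.5 bp against 167 bp. Distance is tied to the annotation, since a far peak is assigned to a gene only where no other start site is nearer.

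Whether LPS changed accessibility at these genes was tested within each population, in 1 DESeq2 fit over all 12 libraries and all peaks that overlapped reciprocally by at least 50% between the tables. Of the peaks of the 8 genes 46 pairs could be matched, 50.5% of untreated peaks and 69.7% of those found after LPS, and none for Garem1. Peaks of each treatment were called and counted in separate tables, so treatment and table cannot be told apart, and matched LPS peaks were wider (median 170 bp against 145.5 bp). A peak passed where the change exceeded 2-fold with an adjusted p under 0.05. In CD45.2 cells 5 of 46 peaks passed, 4 rising and 1 falling, against 7.68% and 3.7% of all tested peaks. In CD45.1 cells 4 passed, 3 rising and 1 falling, against 6.77% and 4.98%. The shares were near the background. The Ptprm peaks among the CD45.1 rises entered the test only through CD45.2 libraries, so that share is given as a description. DESeq2 gave an adjusted p for 45 of the 46 peaks in CD45.2 and for 44 in CD45.1. By edgeR 6 and 5 passed, and 11 and 13 had an unadjusted p under 0.05. Median log2 changes were 0.16 in CD45.2 and 0.29 in CD45.1, against −0.01 and 0.00 over all peaks.

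The falling peak in host microglia was intron 7 of Slc1a3. In the joint fit it held 103, 92.7 and 104 normalized tags in the untreated host libraries (mice 4, 5 and 6) and 37.8, 45.5 and 46.4 after LPS (mice 1, 2 and 3) (−1.18, SE 0.25, DESeq2 adjusted p = 8.39e-05). All 3 LPS libraries lay below all 3 untreated ones. In CD45.1 it held 7.47, 5.51 and 2.87 tags before and 8.204, 11.7 and 13.99 after LPS (1.05, SE 0.46, DESeq2 adjusted p = 0.0885), which did not pass. The LPS response in CD45.1 minus that in CD45.2 was 2.23 (SE 0.526, DESeq2 adjusted p = 0.0135). It was the only one of 46 peaks to pass the interaction at an adjusted p under 0.05 (43 had an adjusted p). Of all peaks 0.242% passed (0.0178% higher in CD45.1 and 0.224% lower). With the mouse as a block the value was 2.31 and the adjusted p = 0.112, with library totals as the scale 2.33 and 0.161, and without CD45.1 of LPS mouse 3 or of untreated mouse 6 2.02 and 0.178 or 1.96 and 0.109, so the call did not hold there. The libraries are the same ones on which the gene was picked, and its CD45.1 counts are low.

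The 4 rising peaks in CD45.2 were 2 of Csmd3 and 1 each of Ptprm and Celf4. At Csmd3 intron 1, chr15:48612600-48612737, host microglia went from 27.2 ± 4.71 to 64.4 ± 18.5 tags (1.22, SE 0.31, DESeq2 adjusted p = 0.00138). At intron 23, chr15:47732551-47732645, they went from 8.86 ± 2.69 to 33.3 ± 18.3 (1.87, SE 0.51, DESeq2 adjusted p = 0.00337). At Ptprm intron 1, chr17:67654295-67654414, both populations passed, with 27.04 ± 5.28 to 57.8 ± 17.6 in CD45.2 (1.03, SE 0.32, DESeq2 adjusted p = 0.0122) and 2.19 ± 0.842 to 7.58 ± 1.898 in CD45.1 (1.82, SE 0.64, DESeq2 adjusted p = 0.0263). The Celf4 peak at −1558 bp rose in CD45.2 from 29.5 ± 7.51 to 60.5 ± 9.09 (1.04, SE 0.32, DESeq2 adjusted p = 0.00921). With the width of the peak as an offset none of these 4 rises passed, and all peaks then shifted by −0.27. Without CD45.2 of LPS mouse 1 or of untreated mouse 5, the Csmd3 intron 23, Ptprm and Celf4 peaks did not pass either, nor did Celf4 without CD45.2 of LPS mouse 3 or untreated mouse 6, or Ptprm without that of untreated mouse 4 (adjusted p up to 0.0916, 0.142 and 0.112). Scaled to library totals the Ptprm and Celf4 rises were lost, and the Ptprm rise was lost in edgeR and at an overlap of 25% too. Its rise in CD45.1 was lost with totals, with the width offset and without any 1 of CD45.1 of LPS mice 1 and 2 and untreated mice 4 and 5 (adjusted p up to 0.118).

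In CD45.1 the other rising peaks were in Csmd3 intron 1 at chr15:48611129-48611248, from 2.19 ± 0.86 to 9.43 ± 8.05 tags (2.10, SE 0.66, DESeq2 adjusted p = 0.0122), and in Ptprm intron 1 at chr17:67543226-67543359, from 1.23 ± 1.07 to 6.17 ± 3.33 (2.18, SE 0.78, DESeq2 adjusted p = 0.0307). These are a few tags per library. Scaled to library totals neither passed. The Csmd3 peak held 2.34, 7.77 and 18.2 tags in CD45.1 of LPS mice 1, 2 and 3. Its rise was also lost without CD45.1 of LPS mouse 3 or of untreated mouse 5. Over the left-out libraries it was 1.06 to 2.64 (DESeq2 adjusted p up to 0.438). The Ptprm rise was lost on leaving out any CD45.1 library but that of LPS mouse 1. Without the CD45.1 library of LPS mouse 3 only 1 of the 4 CD45.1 peaks passed, that of Ptprm at chr17:67654295-67654414. The Axin2 downstream peak fell in CD45.1 from 58.5, 50.2 and 64.5 to 28.1, 33.04 and 25.2 tags (−1.02, SE 0.30, DESeq2 adjusted p = 0.00774), with no overlap. This fall lies close to the 2-fold limit and did not pass at an overlap of 80%. Nor did it pass without CD45.1 of LPS mouse 3 or of untreated mouse 6. Over the left-out libraries it was −1.11 to −0.93 (DESeq2 adjusted p up to 0.0592). In CD45.2 the same peak went from 260.4 ± 115 to 179 ± 34.3 (−0.51, SE 0.24, DESeq2 adjusted p = 0.127), which did not pass.

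**Figure D3:**
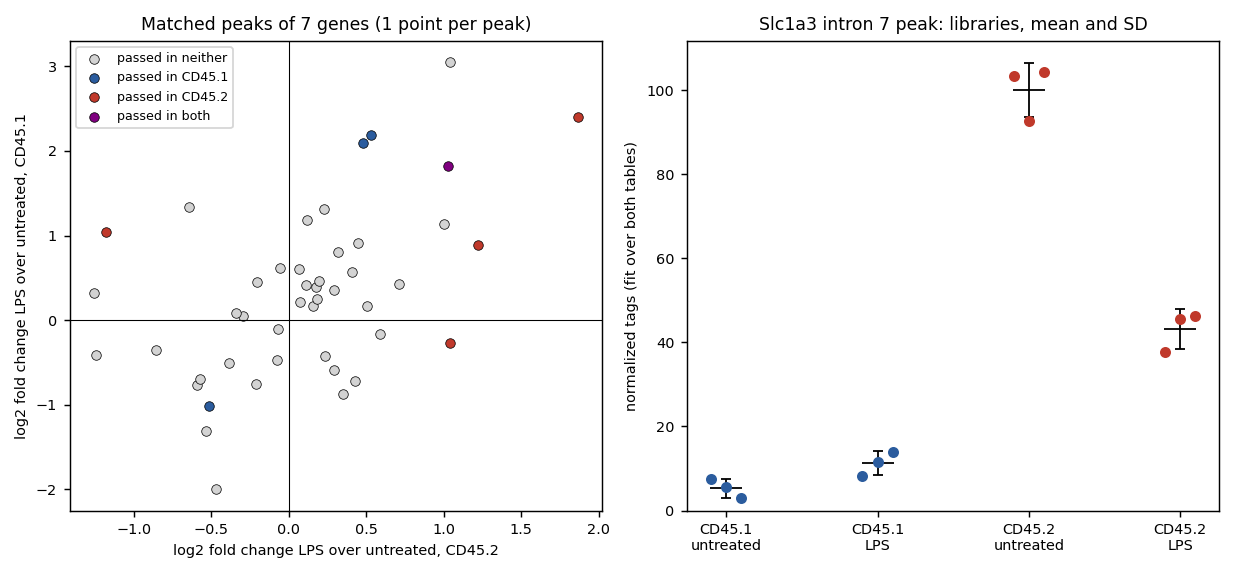
Left, each of 46 matched peaks by its log2 fold change of LPS over untreated in CD45.2 (x axis) and in CD45.1 (y axis), coloured by the population in which it passed. Right, normalized tags of the Slc1a3 intron 7 peak in the 12 libraries with mean and SD (n = 3), which fell from 100.2 to 43.2 in CD45.2 and went from 5.28 to 11.3 in CD45.1.

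Summed over matched peaks, 1 of 7 genes changed in CD45.1, against 27.6% of all genes (15.6% rising and 12% falling). This was Axin2, from 73.3 ± 4.18 to 38.7 ± 11.1 tags (−0.95, SE 0.27, DESeq2 adjusted p = 0.00373), mostly through the rRNA repeat peak. It did not pass without the CD45.1 library of LPS mouse 3 (−0.76, adjusted p = 0.064). In CD45.2 none of the 7 passed in DESeq2 or edgeR, against 15.5% of all genes (10.5% rising and 5.01% falling), and 2 had an unadjusted p under 0.05. The closest was Slc1a3 (−0.35, SE 0.14, DESeq2 adjusted p = 0.0693). None passed the interaction in either tool (background 0.189%, with 0.0406% higher in CD45.1 and 0.149% lower), and 1, Slc1a3, had an unadjusted p under 0.05 (0.61, SE 0.21, DESeq2 adjusted p = 0.45). The difference between populations in untreated and LPS mice was thus not shown to differ for any of the summed genes.

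Relatives and partners of the 8 genes, 115 genes in 7 lists, were tested between the populations by the sum of their peaks (DESeq2, adjusted p under 0.05 over all genes). The lists were chosen with earlier results of these data known. The libraries and the contrast are those on which the 8 genes were picked, so the results are not independent support for the set. In untreated mice 16 of 93 tested genes were higher in CD45.2 and 4 in CD45.1, against 7.46% and 7.35% of all genes, and the median log2 fold change was −0.09. After LPS 4 and 2 of 95 passed, against 2.98% and 4.08%, with a median of −0.13. By edgeR 29 and 8 genes passed. Among 16 neuronal and other RNA-binding relatives of Celf4 and Nova1, 4 were higher in CD45.2 and none in CD45.1. Elavl4, which encodes a neuronal RNA-binding protein, had 2.25 ± 1.39 against 97.8 ± 12.5 normalized tags (−5.43, SE 0.60, DESeq2 adjusted p = 9.84e-18). Its relative Elavl2 had 1.94 ± 0.933 against 26.7 ± 7.05 normalized tags (−3.76, SE 0.73, DESeq2 adjusted p = 6.05e-06), at least 9.16-fold higher, and Nova2, the paralog of Nova1, 14.4 ± 6.02 against 51.3 ± 12.6 normalized tags (−1.80, SE 0.38, DESeq2 adjusted p = 3.29e-05). After LPS only Elavl4 passed, with 1.52 ± 1.37 against 59.5 ± 12.9 normalized tags (−5.45, SE 0.78, DESeq2 adjusted p = 4.71e-10), at least 19.2-fold higher. The Celf and Mbnl genes of the list did not pass.

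Of the 5 CUB and sushi relatives of Csmd3 only Csmd2 could be tested, and it was higher in CD45.2, with 0.352 ± 0.6096 against 14.1 ± 1.92 normalized tags (−5.32, SE 1.32, DESeq2 adjusted p = 7.45e-04). Since no CD45.1 library held more than 3 tags, this was at least 4.82-fold. After LPS only Sez6 of this list could be tested, and it passed in neither tool. None of 9 receptor phosphatases passed on the side of Ptprm. Ptprk, which belongs to the same adhesive subfamily as Ptprm, was higher in CD45.1, with 32.2 ± 4.21 against 0.265 ± 0.459 normalized tags (6.46, SE 1.24, DESeq2 adjusted p = 4.98e-06), at least 9.92-fold. After LPS, when Ptprk had no peak, none of 8 passed in DESeq2 or edgeR, and 1 had an unadjusted p under 0.05. Among 11 hyaluronan and matrix partners of Hapln1, Has1, a hyaluronan synthase, was higher in CD45.1, with 171 ± 27.8 against 14.4 ± 7.59 normalized tags (3.45, SE 0.29, DESeq2 adjusted p = 1.52e-30), and passed again after LPS, among 12 tested, with 179.8 ± 25.6 against 48.9 ± 10.6 normalized tags (1.85, SE 0.23, DESeq2 adjusted p = 5.20e-13). Bcan, the proteoglycan brevican, was higher in CD45.2, with 138 ± 27.4 against 208 ± 15.2 normalized tags (−0.59, SE 0.17, DESeq2 adjusted p = 0.00561). The list thus passed in both directions.

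Of 10 genes of glutamate transport, 3 were higher in CD45.2 in untreated mice. These were the cystine and glutamate exchanger Slc7a11, with 381 ± 38.5 against 564 ± 9.81 normalized tags (−0.57, SE 0.11, DESeq2 adjusted p = 7.80e-06), the astrocyte glutamate transporter Slc1a2, with 146 ± 9.84 against 236 ± 27.96 normalized tags (−0.68, SE 0.16, DESeq2 adjusted p = 2.05e-04), and the glutamine transporter Slc38a1, with 473 ± 19.2 against 587 ± 14.99 normalized tags (−0.32, SE 0.10, DESeq2 adjusted p = 0.0164). All 3 differences were under 2-fold and none passed when library totals set the scale. For Slc38a1 the pass was also lost in the fit blocked by mouse, and when the graft library of mouse 4 or the host library of mouse 5 or 6 was left out (adjusted p up to 0.174). After LPS none of 10 passed in DESeq2 or edgeR, and none had an unadjusted p under 0.05. Of 34 genes of the Wnt pathway, 6 were higher in CD45.2 and none in CD45.1. The receptor genes Fzd8 and Fzd10 had 3.89 ± 0.287 against 145 ± 7.35 normalized tags (−5.22, SE 0.46, DESeq2 adjusted p = 1.58e-27) and 20.2 ± 3.77 against 115 ± 7.01 normalized tags (−2.51, SE 0.27, DESeq2 adjusted p = 3.64e-18), and Nkd1, an inhibitor and target of the pathway, 25.97 ± 5.82 against 90.1 ± 7.93 normalized tags (−1.80, SE 0.27, DESeq2 adjusted p = 2.15e-09). The other three were Lrp5, Fzd4 and Dkk3. After LPS 3 of 36, again Fzd8 (at least 18.3-fold), Fzd10 (at least 10.05-fold) and Nkd1, were higher in CD45.2, and Lgr5 was higher in CD45.1. Nkd1 (−1.54 on the log2 scale) no longer passed once the graft library of mouse 3 or the host library of mouse 2 or 3 was left out (−1.16 to −1.95 over the left-out libraries, adjusted p up to 0.107). Most genes of the pathway did not pass, and the direction of the pathway as a whole was not tested. Of 12 adaptors and receptors listed with Garem1, Gab2 and Egfr were higher in CD45.1, with 647 ± 75.1 against 433 ± 50.9 normalized tags (0.57, SE 0.12, DESeq2 adjusted p = 3.75e-05) and 92.9 ± 11.7 against 51.3 ± 13.02 normalized tags (0.82, SE 0.24, DESeq2 adjusted p = 0.00671), and Gab1 in CD45.2, with 213 ± 35.8 against 314 ± 19.4 normalized tags (−0.56, SE 0.14, DESeq2 adjusted p = 0.00131). None of 12 passed after LPS in DESeq2 or edgeR, and none had an unadjusted p under 0.05. Scaled to library totals, Bcan, Gab1, Gab2 and Egfr did not pass either. Bcan was also lost when the graft library of mouse 6 or the host library of mouse 5 was left out (adjusted p up to 0.0768), and Egfr on leaving out the graft library of mouse 5 or the host library of mouse 4 or 5 (adjusted p up to 0.0793).

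Since several of the 8 genes are known from neurons and astrocytes, markers of these and other cells were summed in the same way. Of 10 neuron markers 7 had tested peaks in untreated mice. Snap25, Syt1 and Rbfox3 were higher in CD45.2, Map2 was higher in CD45.1, and Gad1, Nefl and Stmn2 had no peak. The summed level of the tested markers was 221 to 273 tags in CD45.1 libraries and 292 to 329 in CD45.2. After LPS 8 were tested, Gad1 among them, Snap25 and Syt1 were higher in CD45.2 and Map2 in CD45.1, with sums of 93.3 to 107 and 133 to 206. Of 10 astrocyte markers 8 were tested, 2 were higher in CD45.2 (Aldh1l1 and Slc1a2) and 1 in CD45.1 (Gja1). Aldoc and Sox9 had no peak, and Gfap did not pass in either table. The sums overlapped, with 488 to 600.3 and 539 to 649 tags, and with 391 to 448 and 354 to 454 after LPS, when 7 were tested and only Gja1 passed. The part of other brain cells in the differences at the 8 genes was not tested.

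Of 9 markers of marrow-derived brain macrophages 6 were higher in CD45.1 in untreated and 4 in LPS mice, with sums of 1781 to 1842 against 914 to 993, and of 841 to 984 against 481 to 514. For oligodendrocytes 1 of 8 was higher in CD45.2 (1 of 7 after LPS), and sums were 1278 to 1304 against 1375 to 1399 and 506 to 569 against 528 to 588. For endothelial and mural cells 1 of 5 passed on each side (1 of 6, in CD45.2, after LPS), with 456 to 509 against 533 to 639.7 and 400.4 to 439 against 453 to 470.2. For monocytes, neutrophils and lymphocytes 1 of 4 passed on each side (1 of 5, in CD45.1, after LPS), with 168 to 225 against 121 to 152 and 88.7 to 92.2 against 66.9 to 97.6.

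The genes most like the mean profile of the 8 were sought among 12317 genes by Pearson's r over the 12 libraries, on log2 normalized tags plus 1, centred within each table. The values are a description, since the libraries fall into the populations on which the genes were picked. The 5 most alike outside the 8 were Emcn, Efnb2, Klf12, Synm and 4930511A08Rik, with r from 0.991 to 0.995. Emcn, which encodes an endothelial sialomucin, had 18.9 ± 2.70 against 120.5 ± 8.42 tags in untreated mice and 23.9 ± 6.61 against 135 ± 33.5 after LPS. Efnb2, which encodes the guidance ligand ephrin-B2, had 99.7 ± 11.2 against 501 ± 77.03 and 74.8 ± 17.04 against 280.4 ± 62.5. Of the 8 genes themselves, which are part of the profile, Hapln1 ranked 1, Ptprm 4 and Nova1 6, and Axin2 stood farthest off at 172 (r = 0.942).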

How the data were processed

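ATAC-seq libraries of CD45.1 and CD45.2 cells sorted from the same chimeric brains (30000 to 50000 cells each) were analysed, 3 per group, 12 in all. The authors called peaks with HOMER, filtered them by IDR, merged them per treatment and deposited tags per merged peak as estimated counts on mm9, with no normalization. Of the values 49.1% (untreated) and 47.7% (LPS) were not whole, and all were rounded here for the tests. The submitters' processing notes also name Bowtie2, Picard 1.108 and bcl2fastq 2.17.1.14. How duplicates and the transposase offset were handled is not given in the sources used here. Multiply mapped reads in repeats, and peaks called separately by treatment, affect the counts. Peak lists of single libraries were used only to say which libraries listed a peak.

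The 8 genes, the gene lists and the motifs were chosen with earlier results of these data known. CD45.1 and CD45.2 were compared within each table with DESeq2 1.42.0 (more than 10 tags in at least 1 library, median-of-ratios scaling, adjusted p under 0.01 and more than 4-fold for peaks, adjusted p under 0.05 for gene sums). LPS and its interaction with population were tested in 1 fit over 39235 matched peaks of 12 libraries, and over 14778 gene sums. P-values were adjusted by the Benjamini-Hochberg method, in edgeR over all tested features. In DESeq2 features removed by its own filter on low mean counts got no adjusted p and could not pass. Peaks named in full were the promoter peak and the lowest fold change with a CD45.2 mean of at least 20 in each gene and table, plus all that passed an LPS test. Others were chosen after their values were seen: the near-equal, strongest, upstream and motif-rich peaks. Related genes named had passed, and the most extreme of each list are given. Alternatives were edgeR 4.0.16, other scaling and filters, a mouse block, other overlaps, a width offset and leaving out each library. The scripts were tested on simulated data (R 4.3.3, Python 3.11.15).

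CD45.1 and CD45.2 libraries with the same number came from the same mouse, as the series' design text states. Deviations from the group means, however, correlated by only 0.152, 0.0571 and 0.0670 in mice 4, 5 and 6, and by −0.227, 0.0619 and 0.0590 in mice 1, 2 and 3. Library totals are in the report. Precision is limited most in the LPS table and in CD45.1, where many peaks hold a few tags. The microglia marker list as a whole is not reported here.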

Additional observations from a re-analysis of the deposited data

Results flagged for a closer look

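The Slc1a3 intron 7 peak passed the test of a different LPS response between the populations in the main fit. The log2 response in CD45.1 minus that in CD45.2 was 2.23 (SE 0.526, DESeq2 adjusted p = 0.0135), with a fall in 3 of 3 CD45.2 libraries relative to every untreated one. It was 1 of 46 peaks in the fit, of which 43 had an adjusted p. With the mouse as a block it was 2.31 (DESeq2 adjusted p = 0.112), and scaled to library totals 2.33 (DESeq2 adjusted p = 0.161), so neither passed. The call was also lost without CD45.1 of LPS mouse 3 or of untreated mouse 6 (DESeq2 adjusted p up to 0.178). The libraries are those on which the gene was picked, and this is its peak with the lowest untreated fold change. The edgeR test passed for 1 peak. In the separate tables the same peak went from far past the 4-fold limit in untreated mice to just short of it after LPS, which is the same measurement and no second test. Treatment and table cannot be told apart here, since each treatment had its own merged peaks (142 bp and 201 bp wide at this site).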

How the results depend on the processing

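Among the single peaks and genes followed, none changed direction under any alternative run. These were the promoter and lowest-fold peaks, those that passed an LPS test, and the Axin2 and Slc1a3 sums in the LPS tests. The related genes with the smallest adjusted p in each list were followed too. Peaks named for other reasons, such as the near-equal ones, were not followed. Counts stayed within 1.5 times the reported value in 80 of 96 fits that left out a library and in 47 of 65 other fits. Of 444 and 336 such fits of single peaks and genes, 50 and 31 lost the call and 2 and 2 gained it. Of the 63 untreated and 27 LPS peaks called higher in CD45.2, a mean count of at least 20 left 26 (of 37 tested) and 15 (of 20), and leaving out a library gave 45 to 54 and 14 to 22 (14 without CD45.1 and 17 without CD45.2 of LPS mouse 1). Related genes that passed in untreated mice went from 20 to 9 when scaled to library totals (14 to 19 on leaving out a library), and in LPS mice from 6 to between 4 and 7 on leaving out a library.

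For LPS in CD45.2, 5 peaks passed, and 3 when scaled to library totals, 0 of 14 at an overlap of 80%, 3 with peak width as an offset, and 2 to 5 on leaving out a library (2 without CD45.2 of LPS mouse 1 or of untreated mouse 5). No summed gene passed, but 2 did with the width offset and 2 at an overlap of 25%, and 0 to 1 on leaving out a library (1 without CD45.1 or CD45.2 of untreated mouse 6 or CD45.2 of LPS mouse 1). For LPS in CD45.1, 4 peaks passed, and 1 when scaled to totals, 2 at a mean count of at least 20, 1 at an overlap of 80%, 7 at 25%, and 1 to 7 on leaving out a library (7 and 2 and 1 without CD45.1 of LPS mice 1, 2 and 3, and 2 without CD45.1 of untreated mouse 4 or 5). The 1 gene that passed became 0 when scaled to totals (Axin2, adjusted p = 0.0592), 2 at 25%, and 0 to 2 on leaving out a library (0 without CD45.1 of LPS mouse 3, 2 without that of mouse 1). The cause was not tested.

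The 1 interaction peak became 0 when scaled to totals, with the replicate block, with the block and a GC correction, and at an overlap of 80%, where the peak was not matched, and 0 to 1 on leaving out a library. No summed gene passed the interaction in any fit. The block by mouse moved no other count of calls by over 1.5 times (63 to 51, 27 to 22, 20 to 16 and 6 to 5). The fall of the Slc1a3 intron 7 peak in CD45.2 passed in all 18 settings in which it was fitted (−1.12 to −1.68). Scaling to totals shifted all LPS peaks by 0.136 between populations and by −0.148 for LPS in CD45.2, and the width offset shifted all peaks by −0.27. The overlap of 25% was chosen after seeing the data. Low tag counts in CD45.1 limit what can be detected: at 23 untreated and 19 LPS peaks the graft was at or under the floor of 3 tags in each library.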

Other observations

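At a reciprocal overlap of 25%, an alternative chosen after seeing the data, the Garem1 promoter could be followed across treatments. It rose after LPS by 2.26 in CD45.1 (DESeq2 adjusted p = 3.76e-05) and by 1.67 in CD45.2 (adjusted p = 3.87e-09) on the log2 scale, with the LPS peak 298 bp wide against 127 bp, and a wider peak counts more tags. A Celf4 peak upstream of the gene, 165 bp against 95 bp wide, rose by 3.21 in CD45.2 (adjusted p = 8.64e-10), and no fold is given for CD45.1, in which no untreated library held over 0.5 tags.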
